A study of Mus musculus with 2 samples.

Results

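Testicular macrophages were described here in single-cell RNA libraries of whole testis, as 148 of 22096 cells: 80 of 11232 in the control library and 68 of 10864 in the knockout library. They were chosen by their own transcripts. Barcodes were kept as cells from 1000 UMIs (unique molecular identifiers, the unit of counting) and 500 genes upward, with mitochondrial UMIs at 20% or less. It counted as a macrophage if at least 3 of 8 genes, C1qa, C1qb, C1qc, Csf1r, Adgre1, Cx3cr1, Mrc1 and Pf4, were detected with at least 5 UMIs together. The germ cell genes Ddx4 and Dazl had to stay under 3 UMIs, and the Sertoli cell genes Aard, Cst9, Cst12 and Sox9 under 10 per 10000 UMIs.

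The study profiled testes of C57BL/6 male mice, 13 days old, with 1 library per genotype. Control mice carried a floxed and an intact copy of Psma7 (Psma7 F/+). Knockout mice carried a floxed copy, a copy written as - (by convention a null allele) and a Stra8-Cre knock-in on 1 allele (Psma7 F/-;Stra8-Cre KI/+), and the control's genotype names no Cre. Both genotypes thus share a floxed allele, and every cell of the knockout mice, macrophages included, carries the null copy. Psma7 encodes a subunit of the 20S proteasome, and Stra8 is a germ cell gene, so Cre is not meant to act in macrophages. How many animals gave each suspension is not stated. With 1 library per genotype there is no replicate and no test: every difference below compares 2 libraries, and every 95% interval covers counting error only.

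Macrophages of the testis live in the interstitium between the tubules, beside Leydig cells and vessels, and on the tubule wall. They take up dying cells, handle iron and lipids, secrete growth factors and chemokines, and are known to support Leydig cells and spermatogonia. Those of the interstitium are known for Csf1r and Mrc1 with little MHC class II. Those of the tubule wall are known for MHC class II, the molecules that present peptides to helper T cells.

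The chosen cells carried a broad macrophage programme, which describes them and is no finding, since it follows from the choice. Of the 8 genes, all were detected in 60 of 80 control and 46 of 68 knockout cells. The complement genes C1qa, C1qb and C1qc encode the 3 chains of C1q. They lie next to each other on chromosome 4 of mm10 (C1qb 136880129 to 136886187, C1qc 136889804 to 136893065, C1qa 136895917 to 136898803). Each was found in 75 to 78 of the 80 control and 64 to 67 of the 68 knockout cells. C1qa stood at 2775 UMIs per 1000000 (CPM) in control and 2874 CPM in knockout macrophages. Mrc1, the mannose receptor, stood at 1563 and 1480 CPM, Csf1r, the receptor for the survival factor CSF1, at 466 and 451 CPM, and Adgre1, which encodes F4/80, at 442 and 423 CPM. Over all other cells of both libraries the highest of them, Cx3cr1, stood at 14.9 CPM. Of 22 further macrophage genes that the choice did not use, all 22 were measured, among them Lyz2, Fcer1g and Tyrobp, and together they reached a cell median of 149.5 control and 145.2 knockout UMIs per 10000.

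**Figure D1:**
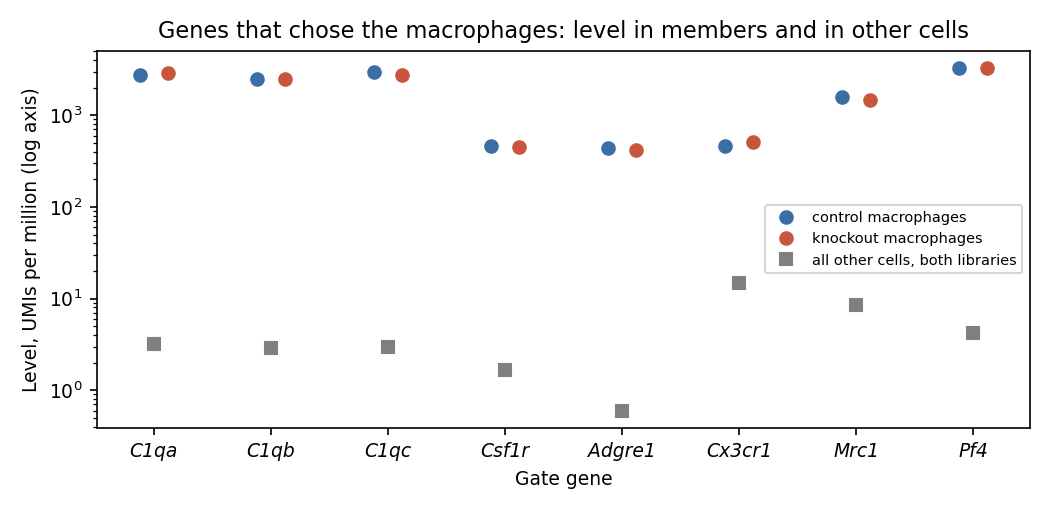
Level of the 8 genes that chose the macrophages, in CPM on a log axis, for control macrophages (blue), knockout macrophages (red) and all other cells of both libraries (grey squares). Each gene had nearly the same level in macrophages of both libraries, from 3287 and 3255 CPM for Pf4 to 442 and 423 CPM for Adgre1.

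Most cells lay far from the limits of the rule, but a few did not. The gate genes summed to a median of 151.4 UMIs per 10000 in control and 144.6 in knockout cells. They were under 60 per 10000 in 8 control and 9 knockout cells, and as low as 9.91 and 1.94. Just outside, 14 cells in each library met the macrophage genes but were over the Sertoli or germ limit, and 3 control and 2 knockout cells had a sum of only 3 or 4 UMIs. The low cells carried more transcripts of other cell types than the rest, stromal, Leydig and monocyte genes in both libraries. In the 9 low knockout cells, Leydig genes reached 34.7 UMIs per 10000, stromal genes 31.5 and monocyte genes 7.005, against 0.871, 1.77 and 2.11 in the 59 other members. A single one of them held 925 of the 927 Hbb-bs (haemoglobin) UMIs. In the 8 low control cells, monocyte genes reached 19.0 per 10000, stromal genes 25.2 and Leydig genes 9.17, against 3.54, 2.78 and 0.670 in the 72 others. Mast cell genes were at 0 UMIs over all control members and at 1 UMI over the knockout members, and neutrophil genes at 26 and 55 UMIs. Results are therefore also given for the 72 control and 59 knockout cells with gate genes at 60 or more per 10000, called the core members. This limit was chosen after seeing the data.

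Members were deeper in the knockout library. Their median was 16034.5 UMIs against 11329.5 in the control, although over all cells the order was the opposite (5482 and 8372.5). In all, control members held 1048297 UMIs and knockout members 1147573. Free RNA made up at most 8.49% of control and 4.07% of knockout UMIs as read from Sertoli genes in members, and at most 2.60% and 6.42% as read from germ cell genes. The rule itself leaves out cells high in Sertoli or germ cell genes, which can make these readings low. The same reading gave 24.6% and 10.65% from stromal genes, and 15.4% and 5.89% from myoid genes. Of all cells, 29 barcodes were listed in both libraries, none of them a macrophage. A doublet caller marked 5 control and 1 knockout member.

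The first comparison was how many macrophages each suspension gave. They made up 0.712% of control cells (interval 0.565 to 0.886) and 0.626% of knockout cells (0.486 to 0.793). The ratio of these shares was 0.879, with an interval of 0.627 to 1.23 that includes equal shares. The make-up of the rest differs between the libraries, since germ cells are few in the knockout. Among cells with Ddx4 and Dazl under 3 UMIs, macrophages were 1.09% of 7332 control and 0.648% of 10496 knockout cells, a ratio of 0.594 (0.423 to 0.831). Against Sertoli cells, taken as cells with the 4 Sertoli genes at 20 or more per 10000, they numbered 2.40 per 100 in the control and 1.04 per 100 in the knockout, a ratio of 0.433 (0.309 to 0.606). The libraries held 3334 and 6541 Sertoli cells, so these ratios move with the Sertoli count as much as with the macrophages. Fewer macrophages in the tissue, fewer freed from it, and more of the other cells beside unchanged macrophages cannot be told apart here.

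**Figure D2:**
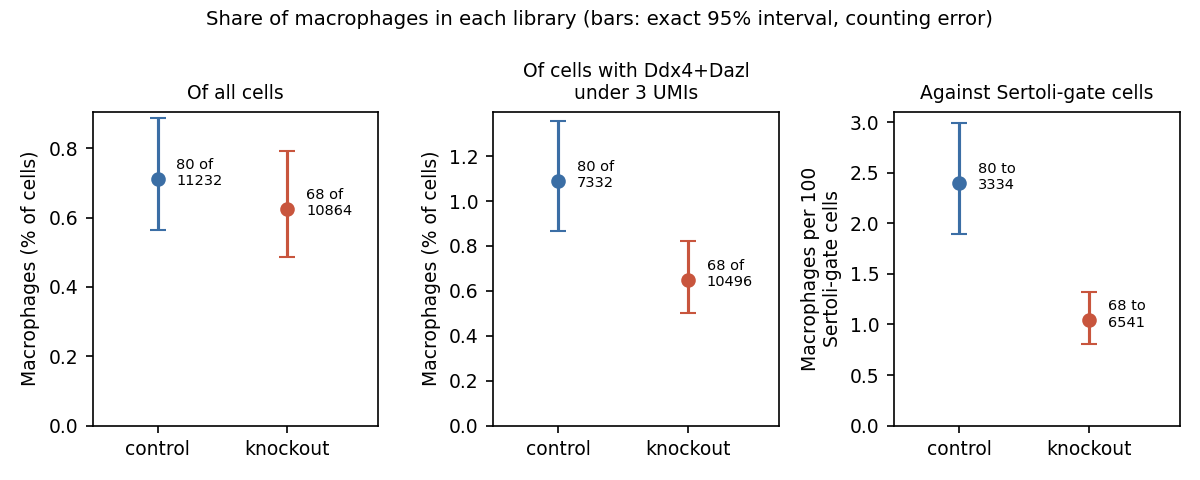
Macrophages as a percentage of all cells (left) and of cells with Ddx4 and Dazl under 3 UMIs (middle), and their number per 100 Sertoli-gate cells (right), 1 point per library with its exact 95% interval for counting error. The intervals overlap for all cells (0.712% and 0.626%) and do not overlap against Sertoli cells (2.40 and 1.04).

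Psma7, on the minus strand of chromosome 2 (180036374 to 180042433), was lower in macrophages of the knockout library. Its level was 324 CPM in control cells (interval 291 to 361, 340 UMIs in 69 cells) and 180 CPM in knockout cells (157 to 207, 207 UMIs in 54 cells). The log2 ratio was -0.85 (-1.10 to -0.59), and -0.93 in core members. The same ratio was -1.47 in Sertoli cells, -1.18 in stromal and -1.14 in endothelial cells, from 247, 242 and 278 CPM in the control. Psma7 made up 367 CPM of control and 144.5 CPM of knockout free RNA. Which exons are floxed is not given, so the counted 3' tags may include transcripts of the null copy. Psma8, its paralogue of the male germ line, had 5 UMIs in members of each library.

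The other proteasome genes did not follow Psma7. All 31 other constitutive subunits were measured, with a median log2 ratio of 0.17, and 25 were above 0 and 6 below, where 47.5% of all measured genes were above 0. The highest were Psmd12 (0.78, interval 0.30 to 1.29) and Psmc2 (0.62, 0.16 to 1.11), parts of the regulatory particle that feeds proteins into the core. The lowest were Psma4 (-0.11, -0.38 to 0.15) and Psmd2 (-0.10, -0.50 to 0.29). Psmb2 and Psma3, the most abundant, were at -0.02 and 0.18. In Sertoli, endothelial and stromal cells the median of these genes was -0.03, 0.01 and -0.12. The immunoproteasome, its activators and assembly factors, 15 genes, had a median of 0.08, with Psmb8, a catalytic subunit used in antigen processing, at 0.29 (0.01 to 0.57).

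Over the 8279 genes with at least 30 UMIs in macrophages of both libraries together, the median log2 ratio was -0.02. In the knockout 153 genes (1.85%) were at least 2-fold higher and 170 genes (2.05%) at least 2-fold lower. Single cells carried many of these: in 27 of the higher and 41 of the lower genes more than 50% of the UMIs of the higher library came from 1 cell. The list counts are to be read against these shares, and counts above 0 against the 3936 of 8279 genes above 0.

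A pattern spread over many cells was seen in genes of resident tissue macrophages, which were lower in the knockout. Of 20 measured members 18 were below 0, with a median of -0.44, 3 were 2-fold lower and 1 was 2-fold higher. F13a1, on chromosome 13 (36867178 to 37050244), encodes the clotting factor XIII subunit that cross-links fibrin and matrix. Control macrophages held 1563 CPM and knockout macrophages 827 CPM, a log2 ratio of -0.92 (-1.03 to -0.80). It was detected in 68 of 80 and 52 of 68 cells, with a cell median of 1722 and 834 CPM, and its largest single cell held 4.70% and 6.43% of its UMIs.

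Receptors and secreted products of resident cells lay on the same side. Selenop, a carrier of selenium, stood at 2031 and 1464 CPM (-0.47, -0.57 to -0.38). Dab2, an adaptor of endocytosis, stood at 1726 and 1183 CPM (-0.54, -0.65 to -0.44). For Folr2, a folate receptor, the values were 300 and 194 CPM (-0.63, -0.88 to -0.38). Ccl24, an eotaxin, had 241 and 108 CPM (-1.16, -1.48 to -0.84) and was found in 50 of 80 and 29 of 68 cells. The lectin genes Clec10a (191 and 97.6 CPM) and Mgl2 (63.0 and 13.9 CPM) were at -0.96 and -2.14, although 1 control cell held 35% of the Mgl2 UMIs. Cbr2, a carbonyl reductase, was at -0.47, Ednrb, an endothelin receptor, at -1.10, and Fcna, a ficolin, at -0.997 with 43.5% of its control UMIs in 1 cell (-0.51 without the top cells).

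Smaller differences had Maf, a transcription factor of resident cells, at -0.29 (-0.42 to -0.17), Gas6 at -0.27, Igf1 at -0.23, Timd4 at -0.34 (-0.83 to 0.14) and Cd209f at -0.16 (-0.58 to 0.26). Stab1 and Wwp1 were at -0.05 and -0.06, with intervals that include 0. The members above 0 were Fcrls (496 and 593 CPM, 0.26) and Lyve1, a hyaluronan receptor of macrophages along vessels (25.8 and 61.0 CPM, 1.23), the latter found in only 8 and 9 cells. In core members 3 of the 20 were above 0 and the median was -0.45.

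**Figure D3:**
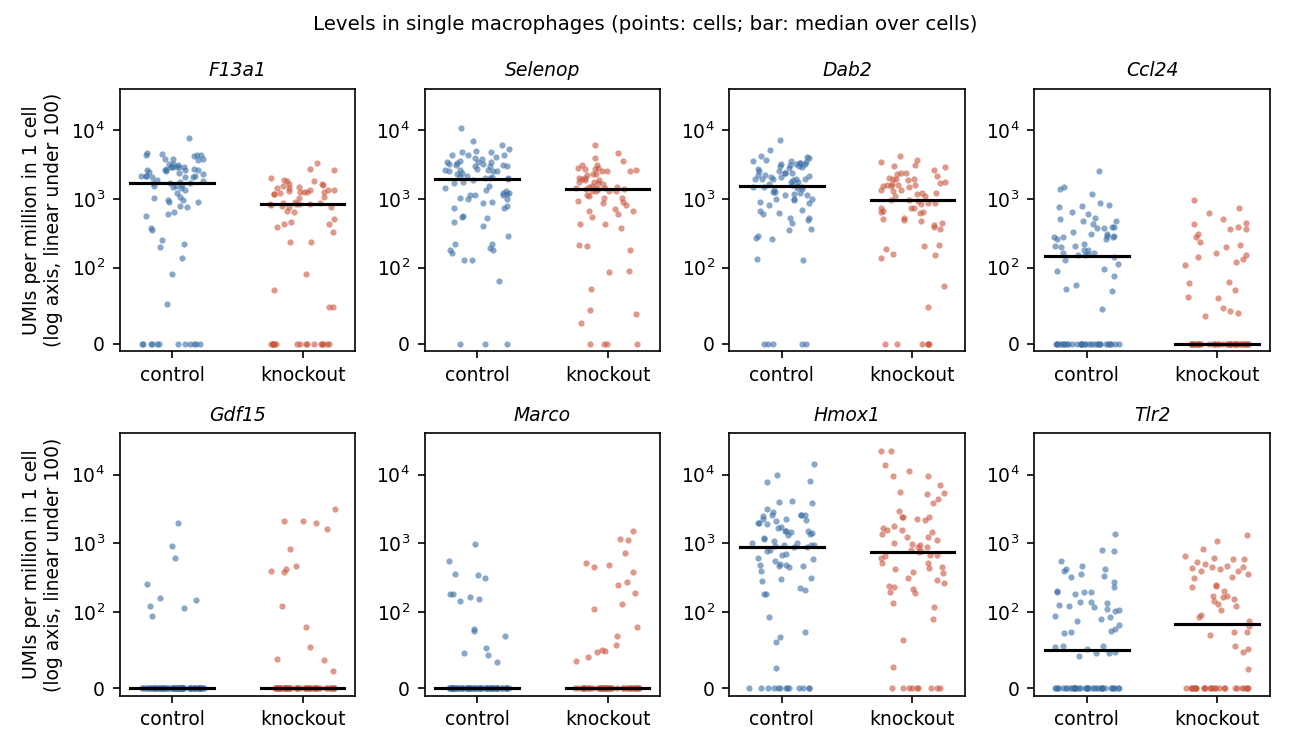
Level of 8 genes in each macrophage, in CPM on an axis that is logarithmic above 100 and linear below, with control cells in blue, knockout cells in red and the cell median as a bar. F13a1, Selenop, Dab2 and Ccl24 had lower medians in the knockout library (for F13a1 834 against 1722 CPM), and Gdf15 and Marco came from few cells in both.

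Members differ in depth between the libraries, so F13a1 was also read within ranges of depth, and in dividing and other cells, chosen after seeing the data. In cells with 10000 to 30000 UMIs, 49 control and 44 knockout cells, its log2 ratio was -0.84 (-0.98 to -0.70), and Selenop was at -0.55. Dab2 and Cbr2 were both at -0.38, and the summed resident genes at -0.36. In those cells Folr2 was at -0.18 (-0.47 to 0.11), an interval that includes 0. Their median depth still differed, at 14610 and 18240 UMIs. Under 10000 UMIs, in 28 and 17 cells with medians of 6144 and 2649, F13a1 was at -1.28, Folr2 at -1.68 and the summed resident genes at -0.57. In cells not counted as dividing, 65 and 51, F13a1 was at -1.05 (-1.19 to -0.92) and the summed resident genes at -0.55. In the 15 and 17 dividing cells F13a1 was at -0.40 (-0.65 to -0.16), and the summed resident genes stood at 6858 and 7426 CPM, a ratio of 0.11. The summed resident genes were thus lower in the knockout among cells not counted as dividing and slightly higher among dividing ones, a contrast that was not tested.

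MHC class II showed how a few cells can set a pooled level. H2-Aa and H2-Ab1 encode the chains of I-A, H2-Eb1 a chain of I-E, and Cd74 the invariant chain that guides them. Their genes share promoter elements, an X box and a Y box. The promoters of H2-Aa (chr17:34287774-34288073, minus strand) and H2-Eb1 (chr17:34305617-34305916, plus strand), from RefSeq on GRCm38.p6, are shown because these transcripts sat in the same few cells. Each window runs from 250 bases before to 50 bases after the start of the gene. Capitals mark GCAACT, the start of the X box, and CTGATTGG, the Y box, searched on both strands.
H2-Aa: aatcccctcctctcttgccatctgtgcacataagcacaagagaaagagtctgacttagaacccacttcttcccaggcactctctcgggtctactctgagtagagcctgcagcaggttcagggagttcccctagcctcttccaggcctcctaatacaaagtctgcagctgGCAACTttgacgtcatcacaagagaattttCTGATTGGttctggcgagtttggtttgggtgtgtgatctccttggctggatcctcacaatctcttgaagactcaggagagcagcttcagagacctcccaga
H2-Eb1: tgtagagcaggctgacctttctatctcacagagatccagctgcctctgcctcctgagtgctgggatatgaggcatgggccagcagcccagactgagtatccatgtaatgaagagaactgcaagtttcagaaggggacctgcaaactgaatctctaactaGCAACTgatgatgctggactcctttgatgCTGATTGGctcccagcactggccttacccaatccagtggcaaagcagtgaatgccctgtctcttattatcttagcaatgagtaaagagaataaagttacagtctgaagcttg
From the first base of GCAACT to the first base of CTGATTGG there are 30 bases in H2-Aa and 29 in H2-Eb1. Of the 32851 promoters in the table, 10.9% hold GCAACT and 4.10% hold CTGATTGG. In 5 promoters the first motif starts 25 to 35 bases before the second, those of H2-Aa, H2-Eb1, H2-Eb2, Gstz1 and Tigd3. A match describes the letters and is not evidence of a bound site.

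Pooled over all members, class II was lower in the knockout. H2-Aa stood at 240 and 54.9 CPM (log2 ratio -2.12, -2.55 to -1.73), H2-Ab1 at 138 and 42.7 CPM (-1.69), H2-Eb1 at 229 and 24.4 CPM (-3.21) and Cd74 at 413 and 208 CPM (-0.99). H2-DMb1, a chaperone of peptide loading, was at -0.85 and H2-DMa at -0.13, so all 6 measured members were below 0, with 3 of them 2-fold lower. But 803 of the 1070 control UMIs of the first 4 genes lay in 1 cell. That cell had gate genes at 12.3 per 10000, 12 UMIs of Mrc1 and none of C1qa or F13a1. The next cell held 138. Without the top cell of each library the 4 genes stood at 258 and 231 CPM, and without the top 2 cells at 125.5 and 206 CPM.

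In core members the order was the reverse, but the core limit itself removed most of the control class II UMIs. Members under the limit held 994 of the 1070 control UMIs (92.9%) and 10 of the 379 knockout UMIs (2.64%). The limit is set on gate genes that include Csf1r and Mrc1, so it is not independent of class II. The reversal therefore depends on which cells the limit leaves out. The 72 control cells held 76 class II UMIs (82.2 CPM) and the 59 knockout cells 369 (365 CPM). H2-Aa had 4 and 63 UMIs, H2-Ab1 3 and 49, H2-Eb1 2 and 28, and Cd74 67 and 229. Of the knockout UMIs 32.2% were in 1 cell, and without the top cell of each library the levels were 67.8 and 253 CPM. At least 9 class II UMIs were found in 1 of 72 control and 13 of 59 knockout core cells, which also differ in depth (medians 11808 and 16624 UMIs). Of these, 5 knockout cells and the control cell held Cd74 only. After each cell was thinned to 1000 UMIs, at least 1 class II UMI was left in 5 of 72 and 10 of 59.

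**Figure D4:**
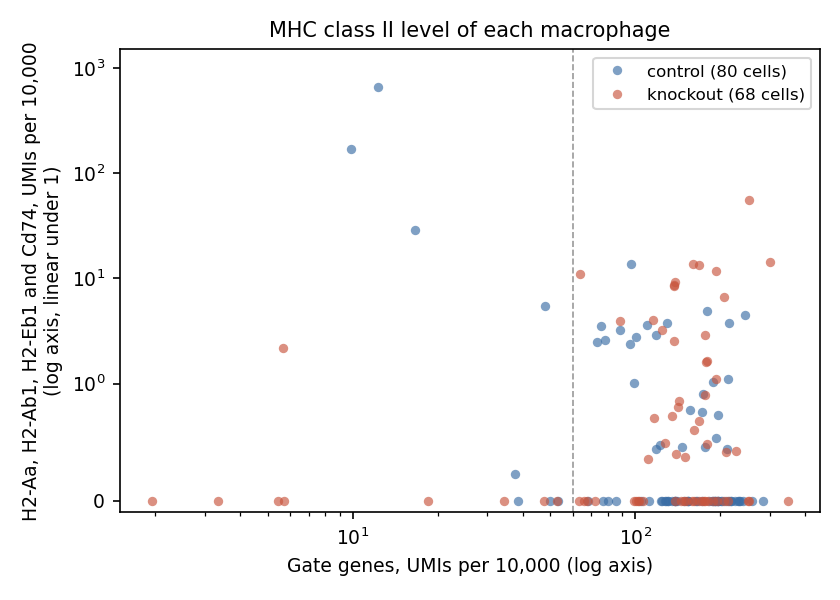
Summed H2-Aa, H2-Ab1, H2-Eb1 and Cd74 UMIs per 10000 of each macrophage (y, logarithmic above 1) against its gate genes per 10000 (x, log axis), control in blue and knockout in red. The 3 highest control cells lie left of the dashed line at 60, with gate genes at 12.3 per 10000 in the top cell, and the highest knockout cell lies right of it at 252.7.

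The share of cells with at least 3 class II UMIs after thinning over all members was 3.75% in the control (3 of 80, interval 0.780 to 10.6) and 2.94% in the knockout (2 of 68, 0.358 to 10.2). Unthinned it was 18.8% and 23.5%. In Sertoli cells, which should lack these transcripts, the thinned share was 0.03% in the control and 0 of 6541 in the knockout, which allows up to 0.0459%. Their median depth was 4936 and 4062 UMIs. A cut on this count is a range and not a cell type: 2 cells in each library had 2 UMIs. Cells with 9 or more class II UMIs were of different kinds, a split made after seeing the data. Of the 14 such knockout cells, 6 held Cd74 and no H2-Aa, H2-Ab1 or H2-Eb1, with F13a1 at 12.2 CPM and Mrc1 at 128 CPM. In the 8 with H2 transcripts F13a1 stood at 1102 CPM and Mrc1 at 1656 CPM, against 930 and 1716 CPM in the other 54 cells. Of the 5 such control cells, 3 held H2 transcripts, none of them a core member. Pooled over these 3, F13a1 stood at 128.5 CPM and Il1b, which encodes interleukin 1 beta, at 3630 CPM. Those Il1b UMIs, 60 and 53, lay in the cells with 31 and 138 class II UMIs, and the cell with 803 held none. The 8 knockout cells with H2 transcripts were all core members and held no Il1b UMI. Il1b was present in the cells with Cd74 only, from either library (control 1301 CPM, knockout 1137 CPM).

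MHC class I, which presents peptides made by the proteasome, had a median of 0.28, with 10 of 12 genes above 0. B2m and H2-K1 were at 0.04 and 0.05. The highest, H2-Q6 and H2-Q7, were at 0.84 and 0.83 and belong to a family of near-identical genes whose reads can be split between copies.

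Among secreted factors the highest was Gdf15, a stress-induced member of the TGF-beta family on chromosome 8 (70629393 to 70632456). Its levels were 42.0 CPM (control) and 220 CPM (knockout) (log2 ratio 2.37, interval 1.92 to 2.88, the same in core members), in 9 and 16 cells. In the control 1 cell held 50% of its UMIs and in the knockout 1 cell held 31%. Spp1, osteopontin, followed at 48.6 and 134 CPM (1.45) in 11 and 19 cells, with 54.9% of the control UMIs in 1 cell (2.12 without the top cells). The lowest were Bmp2 (72.5 and 9.59 CPM, -2.86), with 59% of the control UMIs in 1 cell, and Pdgfc (-1.08). Of 15 measured secreted factors 10 were above 0, with a median of 0.26, 3 were 2-fold higher and 2 were 2-fold lower.

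Among scavenger and uptake receptors, Marco, which binds bacteria and particles, stood at 49.6 and 158 CPM (1.66, 1.22 to 2.14) in 17 and 21 cells. In cells of 10000 to 30000 UMIs it was at 0.75 (0.21 to 1.31). Itgb5, an integrin chain, was the next highest at 0.50. Dock1, which drives engulfment, was lowest at -0.68 (-1.01 to -0.35), then Jmjd6 at -0.43. Over the 18 measured genes 8 were above 0 and 10 below, and the median was -0.03. Lysosomal genes were likewise centred near 0 (27 measured, median 0.04), with the protease gene Ctsd highest at 0.56 (853 and 1260 CPM) and Tfeb lowest at -0.36 (-1.23 to 0.50). For Ctsd 24.5% of the knockout UMIs came from 1 cell, and its ratio was 0.35 without the top cells. In cells of 10000 to 30000 UMIs Ctsd was at -0.0042 (-0.15 to 0.14). Lgmn and Ctsb, the most abundant, were at -0.12 and 0.04. Of 10 complement and Fc receptor genes, Fcgr2b, the inhibitory Fc receptor, was lowest at -0.59 (-0.91 to -0.27).

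The iron and oxidative stress lists had medians above that of all genes, with most differences small. Of 13 iron and haem genes 9 were above 0, with a median of 0.28. The ferritin genes Fth1 and Ftl1, which store iron, stood at 6177 and 8691 CPM (0.49, 0.45 to 0.54, and 0.26 in cells of 10000 to 30000 UMIs) and at 6585 and 7983 CPM (0.28). Spic, a factor of iron-recycling macrophages, was highest at 1.41 with 10.5 and 28.8 CPM. Hmox1, which breaks down haem, stood at 1550 and 2342 CPM (0.60, 0.51 to 0.69), but its cell medians were 877 and 755 CPM, in the opposite order. In dividing cells it stood at 518 and 3168 CPM, but 52.6% of those knockout UMIs lay in 1 cell, and without the top cell of each library the levels were 396 and 1705 CPM. In the other cells it stood at 1846 and 2000 CPM. Of 15 oxidative stress genes 13 were above 0, with a median of 0.32 and Txnrd1, thioredoxin reductase, highest at 0.76.

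Inflammatory cytokines and their regulators had a median of 0.21, with 12 of 16 above 0, 1 gene 2-fold higher and 1 gene 2-fold lower. Tnf stood at 357 and 542 CPM (0.60, 0.42 to 0.79), in 38 of 80 control and 38 of 68 knockout cells. In dividing cells it stood at 852 and 1052 CPM (0.30), and in the others at 215 and 330 CPM (0.62). The feedback inhibitors Tnfaip3 and Socs3 were at 0.80 and 1.14. Nfkbia, the inhibitor of NF-kappaB, and Cd83 were at 0.22. Il1a was lowest at -1.20 (30.5 and 13.1 CPM, 6 cells in each library). Il1b stood at 259.5 and 290 CPM (0.16, -0.07 to 0.40), from 13 and 17 cells. It was at 1.29 in core members and at -0.11 without the top cells.

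Chemokines showed no common direction in pooled ratios (7 of 13 above 0, median 0.09). Over cells their sum had medians of 16.6 control and 16.1 knockout UMIs per 10000, and upper quartiles of 52.0 and 105.8. Ccl4 stood at 1671 and 1176 CPM (-0.51, -0.61 to -0.40) in 21 and 24 cells, and Ccl3 and Ccl2 were both at -0.21, with Ccl3 at 0.10 in core members. Their upper quartiles over cells ran the other way. They were 72.2 and 444 CPM for Ccl4, 72.45 and 329 for Ccl3, and 1595 and 2065 for Ccl2. After thinning to 1000 UMIs Ccl4 was left in 18 and 16 cells, Ccl3 in 16 and 9, and Ccl2 in 29 and 27. Cxcl2 was at -0.02, with upper quartiles of 157 and 1645 CPM, and was left in 10 of 80 and 20 of 68 cells. Ccl7 stood at 498 and 702 CPM (0.49, 0.33 to 0.66), Ccl12 was at 0.29, and Ccl8 was at 0.76 with 49.6 and 84.5 CPM, 67.3% of the former in 1 cell (1.95 without the top cells). Apart from Ccl24 no chemokine was 2-fold apart. Cells high in chemokines were also high in cytokine genes, with a rank correlation of 0.60 over 80 control and 0.63 over 68 knockout cells, each thinned to 1000 UMIs. Both sums come from the same cells, so this is a description.

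Interferon-stimulated genes were not uniformly placed either. Of 13 measured, 5 were above 0 and 8 below, with a median of -0.11. Rtp4 (-0.92, -1.51 to -0.35), Ifitm3 (-0.80) and Trim30a (-0.63) were lowest. Gbp2 (0.97, -0.13 to 2.25, 54.5% of its knockout UMIs in 1 cell), Irf1 (0.62, 0.37 to 0.88) and Bst2 (0.44) were highest. Of 17 genes for pattern recognition 13 were above 0, and Tlr2, a receptor for bacterial lipoproteins, stood at 120 and 214 CPM (0.83, 0.51 to 1.15), detected in 44 of 80 and 42 of 68 cells.

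**Figure D5:**
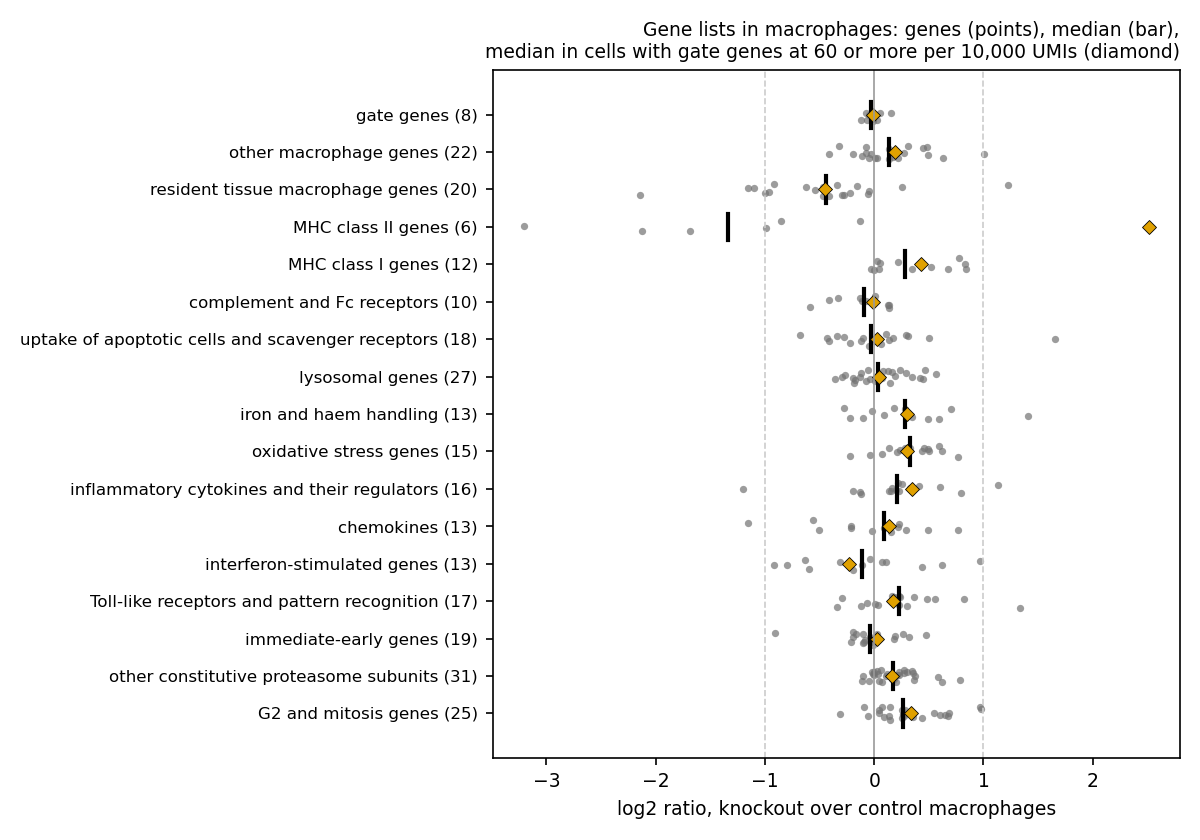
Log2 ratio of knockout over control macrophages for the measured genes of 17 lists (grey points, number of genes in brackets), with the list median as a bar and the median in core members as a diamond. The resident list lies at -0.44 and -0.45, while the class II list lies at -1.34 over all members and at 2.51 in core members.

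Immediate-early genes, which respond within minutes to stimuli and to tissue dissociation, were nearly level in macrophages. Their median was -0.04 over 19 genes, with 7 above 0. The same 19 genes had a median of 0.95 in Sertoli cells, 0.38 in stromal and 0.07 in endothelial cells, values that were not tested against those of macrophages. Jun and Junb, the most abundant, were at 0.03 and 0.18. Klf2, a factor that restrains inflammatory genes in myeloid cells, was lowest, at 556 and 296 CPM (-0.91, -1.11 to -0.71), and was detected in 61 and 49 cells. Nr4a1 was highest at 0.47. Among regulators of the myeloid lineage Id2 was highest (136 and 292 CPM, 1.10, 0.82 to 1.40), while Irf5 and Ikzf1 were lowest at -0.51 and -0.36 and Zeb2, one of the most abundant, was at -0.12.

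Macrophages with transcripts of G2 and mitosis genes, counted here as dividing, were found in both libraries. Division itself was not measured. After thinning to 1000 UMIs, 18.8% of control (15 of 80, interval 10.9 to 29.0) and 25% of knockout macrophages (17 of 68, 15.3 to 37.0) had at least 3 UMIs of G2 and mitosis genes. These intervals overlap widely, and 6 and 3 cells lay 1 UMI below the limit. Unthinned the shares were 72.5% and 77.9%. In Sertoli cells the thinned shares were 2.34% and 6.71%. Of 25 measured G2 and mitosis genes 22 were above 0 in macrophages, with a median of 0.26, led by Bub1 and Top2a (both 0.97). The median of the list in Sertoli cells was 1.48. Of 22 S phase genes 17 were above 0, with Ccne2 (1.45) and Gins2 (1.12) highest.

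A gene entered the ranking if its higher library reached 50 CPM and 30 UMIs. Left out were haemoglobin, mitochondrial and ribosomal genes, unnamed gene models and genes whose level free RNA at 10% of UMIs would give. Among these the highest ratios after Gdf15 were Bcl2a1a, a survival factor of the BCL2 family with near-identical copies that can share its reads (14.3 and 59.3 CPM, 2.01), Jdp2 (1.74) and Marco. Bcl2a1a was found in 8 control and 11 knockout cells, with 37% of its knockout UMIs in 1 cell. Arl5c was found in 4 and 13 cells, Rgs1 in 9 and 12, and Tmem205 in 22 and 43. Ccdc152 was found in 15 and 20 cells and was at 0.97 without the top cells. Arl5c (1.37), Tmem205 (1.39), Rgs1 (1.44) and Ccdc152 (1.36) also had ratios of at least 1 in core members. Map3k5 (1.24) and Jdp2 did too, but 65% and 62% of their knockout UMIs were in 1 cell. Fdx1 (1.56), Aldh1a1 (1.52), Col4a1 (1.40), Htra3 (1.27) and Sparc (1.25), genes of Leydig, stromal or vascular cells, were not: in core members Fdx1 was at 0.51, Aldh1a1 at -0.77, Col4a1 at -1.60, Htra3 at -0.38 and Sparc at -0.82. Leydig genes as a list were at 1.56 over all members and at -0.13 in core members, where their UMIs were 0.670 per 10000 in the control and 0.871 in the knockout.

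The lowest ratios were those of Olr1 (79.2 and 0.87 CPM) and Thbs1 (95.4 and 6.10 CPM), both from few cells: 98% of the Olr1 UMIs were in 1 control cell and Thbs1 was found in 5 control cells. Fn1 (-2.29), Slit3 (-1.42), Fhl2 (-1.43) and Nhs (-1.58) also had more than 50% of their control UMIs in 1 cell. Fgfr1 (-1.91, 60.1 and 15.7 CPM) was spread over 36 control and 13 knockout cells. Naaladl2 (-2.26) and Akap12 (-2.04) were found in 10 and 15 control cells, with 34% and 37% of their control UMIs in 1 cell. Both were higher in all other cells (379 and 269.5 CPM) than in macrophages of both libraries together (42.35 and 31.0 CPM). Fgfr1, Fn1, Slit3, Fhl2 and Nhs were also higher in the other cells. Among the 30 genes most specific to macrophages against all other cells, those furthest below 0 were Ccl24, Wfdc17 (-1.10, 198 and 92.4 CPM) and F13a1. The furthest above 0 were Marco and Ctss, a cathepsin, at 0.45.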

How the data were processed

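The authors deposited raw UMI counts per gene and barcode for each library, whose headers name Cell Ranger 7.1.0, with mm10 as the build in the submitters' processing notes. The matrices list 1707157 control and 1477364 knockout barcodes over 32285 genes, with 146528736 and 112746953 UMIs. From these counts, cells and macrophages were chosen by the limits given in the report, and UMIs were summed per library. Ratios are log2 with a prior count of 0.5, and intervals are exact 95% Poisson or Clopper-Pearson intervals. Barcodes of 10 to 100 UMIs stood for free RNA. Doublets were scored with Scrublet (scanpy 1.11.5). In the knockout library its threshold failed (1 of 10864 cells marked), and the control library's value of 0.183, applied to both after this was seen, marked 4.36% and 2.45% of cells, none of which was removed.

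Genes named are Psma7, the gate genes, the 30 most specific to macrophages, the 15 highest and 15 lowest ratios under the filter given there, whole lists for resident, class II, cytokine, chemokine and interferon genes, and of other lists the 2 highest, 2 lowest and 2 most abundant. Names outside this rule, such as Psma8, Hbb-bs and Psmb8, were chosen after their values were seen. The members and lists were chosen with earlier results of these data known. Alternatives varied cell limits, gate, doublets, free RNA, scaling, gene filter and cell weights. Python 3.11.15, numpy 2.4.6 and scipy 1.17.1 were used, with coordinates from GENCODE M21. Scripts were tested on simulated data. A few named genes are not reported here.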

Additional observations from a re-analysis of the deposited data

How the results depend on the processing

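Of 172 values of 20 main results under the alternatives, 158 stayed within the interval of the reported value (for lists, the median of the members' interval bounds) or within 1.5 times the reported count, 12 moved and 2 reversed. Genes 2-fold higher numbered 266 with 10% of UMIs subtracted as free RNA, 272 with free RNA at the share read from Sertoli genes, 31 with at least 100 UMIs per gene and 2353 with no filter. Genes 2-fold lower numbered 355 with 10% free RNA, 28 with at least 100 UMIs and 2427 with no filter. The class II median was 1.65 with at least 4 gate genes and 10 UMIs, 2.51 in core members and -0.14 without the top cell of each gene. The immediate-early median was 0.12 with each cell given the same weight. The thinned class II share at 3 UMIs was 0% of 72 control core cells, which allows up to 4.17%, beside 2 of 59 knockout core cells. At 1 UMI over all members it was 10.0% in the control and 16.2% in the knockout, and only the latter moved. The dividing share at 5 UMIs was 10.0% of control and 17.65% of knockout cells, and only the former moved. The cause of these shifts was not tested.

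With at least 4 gate genes and 10 UMIs, and in core members, these of the named genes reversed: Aldh1a1 (-0.59, -0.77), Cd74 (1.12, 1.64), Col4a1 (-0.45, -1.60), H2-Aa (2.17, 3.69), H2-Ab1 (2.87, 3.69), H2-DMb1 (0.19, 0.36), H2-Eb1 (2.31, 3.38) and Sparc (-0.37, -0.82). In core members only, Htra3 (-0.38) and Ccl3 (0.10) reversed. Without the top cell H2-Ab1 was at 0.29 and Cd14 at -0.18, and Apoe was at -0.018 with free RNA at the Sertoli share. No paired analysis was possible because each genotype has 1 library. The number of cells, 80 and 68, limits every share, and genes found in few cells rest on those cells.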
